A study of Rattus norvegicus with 16 samples.

Results

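Transcripts of the rat heart that were assembled from the reads, and whose locus lists a single transcript, were examined. A transcript was taken when its identifier begins with MERGE, when it is listed for all 16 libraries, and when no other transcript listed for all 16 has the same locus number. Locus MERGE.16966 was left out by the rule. This gave 6692 loci, which is 21.6% of the 31042 transcripts listed for all libraries and 36.2% of the assembled ones. The rule itself uses no measured value, but the listing it starts from had been limited to transcripts above a low group mean before deposit. Of these loci, 5008 reached a value of 1 in 5 or more libraries and were tested, and 1684 did not. Further transcripts of the same locus were listed for only part of the libraries at 360 of the 6692 loci, 283 of them tested.

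Ribosomal-RNA-depleted total RNA of heart tissue was measured in 3 groups of rats. The Wistar Kyoto rat (WKY, 5 libraries) is the control strain of the spontaneously hypertensive rat (SHR, 5 libraries), and both of these groups received double distilled water by stomach tube. The other SHR (6 libraries) were given neferine, a lotus alkaloid, by the same route for 10 weeks, with a daily dose of 10 mg/kg, and their treatment labels name both water and neferine. The library SHR 1 is labelled SHR in its title, strain, genotype and group, and WKY in its description. Library numbers were taken as separate animals. If they were not, the p-values measure only technical spread.

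Transcript assembly builds transcript models from overlapping reads, without needing a prior annotation, and numbers the models of each locus. Loci with a single model commonly include long noncoding RNAs, unspliced RNAs and pieces of longer transcripts, and ribosomal depletion keeps RNAs without a poly(A) tail. SHR and WKY are inbred strains that differ in genome sequence as well as in blood pressure, so strain, sequence and pressure cannot be told apart in their comparison. In whole tissue, fewer cells of a type and less RNA per cell cannot be told apart either. None of the 31042 identifiers matched a gene symbol in the reference table (0 matches), so the tissue label could not be checked against heart markers, and gene, position and sequence are not used here.

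The deposited values behave as whole numbers of reads divided by transcript length and library total. The ratio of 2 libraries, after correction for depth, piles up at simple whole-number ratios. This was counted between WKY 1 and WKY 3 at 4272 loci with a mean value under 3, in bins of 0.005 on the log2 scale. The bin at a ratio of 1 to 1 held 67 loci, that at 2 to 1 held 26 and that at 1 to 2 held 28. The median over all bins, sparse ends included, was 4 loci. Other bins within 0.1 of the 1 to 1 bin held 5 to 22. Relative depths from all 120 pairs of libraries agreed within 3.14e-06 on the log2 scale. The lowest relative depth was 0.858 (SHR 6) and the highest was 1.13 (WKY 1). Whole reads, to within 0.05 of a read, were recovered for 6559 of the 6692 loci (98.0%).

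**Figure D1:**
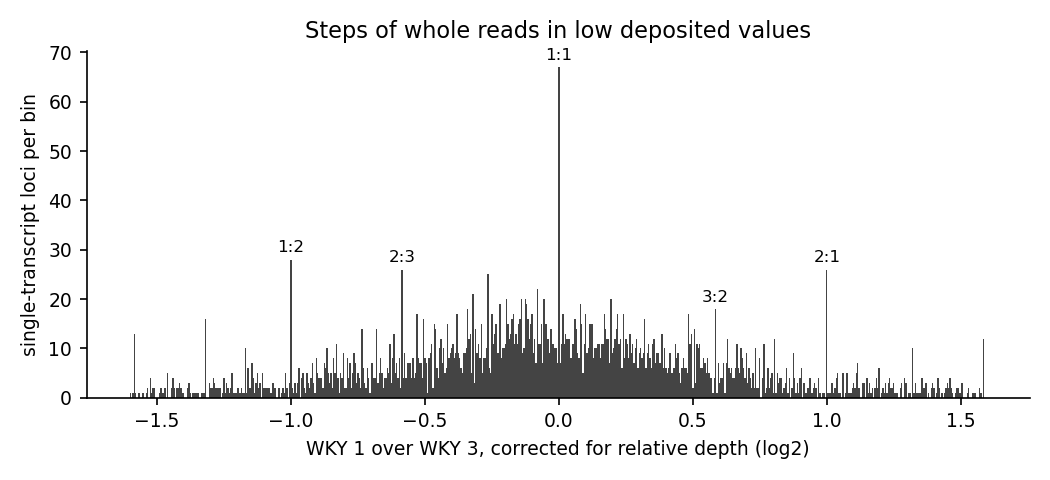
Histogram of single-transcript loci with a mean value under 3, by the ratio of the deposited value in WKY 1 to that in WKY 3, corrected for relative depth, on a log2 axis with bins of 0.005. The spikes stand at ratios of whole numbers of reads, and the highest holds 67 loci at a ratio of 1 to 1.

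If the constant is that of RPKM (reads scaled by transcript length and library total), library totals ran from 51.7 to 68.1 M reads (mega-reads). That constant is an assumption, and a total could also differ by a common whole factor, for example where both mates of a pair were counted. WKY libraries held 54.7 to 68.1 M reads, SHR libraries 51.7 to 65.9 M reads, and neferine libraries 56.8 to 67.8 M reads. The loci held 6.09% to 7.23% of the summed values of a library. Libraries WKY 1, WKY 3, SHR 3 and SHR 4 had the lowest scores on the first component of the residuals, at -0.29, -0.34, -0.46 and -0.31. The other 12 ran from -0.16 to 0.40, so the 4 lay at 1 end of a range. WKY 6, at 0.40, lay farther from 0 than WKY 1, WKY 3 and SHR 4. Counts of calls without the 4 libraries of lowest score are given with each comparison.

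Transcripts of single-transcript loci were short. Their recovered length had a median of 1715 bases, from 200 to 25125. The median was 2956 bases at loci with 2 listed transcripts, 3283.5 at loci with 3 to 9, and 2001 for annotated transcripts. Loci whose only transcript carries the number 1 (5323 of 6692, 79.5%) had a median of 1408 bases. The other 1369 carry a higher number, 945 of them the number 2 and had a median of 2690 bases. A locus had a median of 153.5 reads per library, and the middle 80% of loci lay between 15 and 1478 reads. The untested loci were shorter, with a median of 759 bases against 2092.5 for the tested.

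Most single-transcript loci were at low levels, in deposited units scaled by length. The median of their mean value over 16 libraries was 1.34, and the middle 80% lay between 0.581 and 8.62. A mean under 1 was found at 2472 loci, a mean of 1 to 10 at 3639, and a mean of at least 10 at 581, of which 68 reached 100. A value of at least 1 in all 16 libraries was found at 1998 loci (29.9%), and in no library at 117. Values above 0 in all libraries were found at 4975 loci (74.3%). Between 444 and 525 loci were at 0 in a WKY library, against 310 to 363 in an SHR library and 280 to 404 in a neferine library, and the WKY range did not overlap the others. The listed rows had been chosen before deposit in a way that bears on this: every locus had a mean of at least 0.5 in SHR or neferine, while 902 had a WKY mean below 0.5.

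A few loci held much of the signal. The 10 most abundant made up 13.5% to 17.2% of the summed values of the loci in a library, and the 100 most abundant 42.4% to 47.5%. The most abundant was MERGE.15431.1, a transcript of 854 bases that carries 4.64% to 10.3% of that sum. Its values were 1901, 2056, 2552, 2843 and 2887 in WKY 1, 3, 4, 5 and 6, and 3720, 3904, 2429, 2479 and 3788 in SHR 1, 2, 3, 4 and 6. Among treated animals its lowest value was 2439.5, its median 2902 and its highest 3498. The groups overlapped, and SHR 3 and SHR 4, both among the 4 libraries of lowest residual score, were the lowest of SHR. The fold change of SHR over WKY was 0.40 on the log2(value + 1) scale (SE 0.17, limma, Benjamini-Hochberg adjusted p = 0.346). It passed the threshold only with the first residual component as a covariate (limma adjusted p = 0.00102). That component comes from the residuals of the same fit, so it takes out spread and leaves the fold change as it was. The smaller p-value is in part built in, and no conclusion is drawn from it.

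The next in level was MERGE.16264.2, a transcript of 1311 bases with a mean of 598. Its values were 744, 666, 625.2, 543 and 548 in the WKY libraries and 551, 452, 620, 689 and 558 in the SHR libraries, in the same order. With neferine they ran from 511 to 668, with a median of 603. All 3 groups overlapped, and the fold change of SHR over WKY was -0.13 on the log2 scale (SE 0.12, limma adjusted p = 0.787).

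Spread between animals of one group was lower at single-transcript loci than at assembled loci with more listed transcripts, as a description of these classes. The SD of log2(value + 1) within groups had a median of 0.31, against 0.39 over all tested transcripts. It was 0.53 at loci with 2 listed transcripts, 0.62 at loci with 3 to 9, 0.80 at loci with 10 or more, and 0.29 for annotated transcripts. Over the 4956 tested loci with recovered reads, the variance within groups was a median of 27.1 times what counting alone would give. It lay below 2 times at 41 of them (0.827%), so counting was a small part of the spread between animals. The median coefficient of variation beyond counting was 30.9%, against 5.84% from counting itself. It was 17.6% in the class of loci with the most reads (median 1984) and 41.7% in that with the fewest (median 28.25).

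The largest spreads came from loci that were high in some libraries of a group and near 0 in others. MERGE.21280.1, of 623 bases, had 186 in WKY 3 (7718 reads) against 0, 0, 0.503 and 0 in WKY 1, 4, 5 and 6. In SHR it had 94.2 in SHR 1 and 116 in SHR 6 against 0.889, 2.07 and 1.11 in SHR 2, 3 and 4. In the neferine group it had 101 in neferine 1, with a median of 0.787 and a lowest value of 0. In each group at least 1 library was high, and none of its comparisons was called (limma adjusted p = 0.803 for SHR against WKY).

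MERGE.20712.1, of 484 bases, showed the opposite balance. It had 167, 162, 135 and 63.1 in WKY 1, 3, 4 and 5 and 0.0756 (2 reads) in WKY 6. In SHR it had 98.4, 43.8, 177, 132 and 62.7. In the neferine group it had 0.0684 in neferine 1, 0 in neferine 6, and between 111 and 138 in the other 4. Again no comparison was called (limma adjusted p = 0.910 for SHR against WKY, without a stable direction: the log2 fold change was 0.94, and -0.43 without WKY 6).

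**Figure D2:**
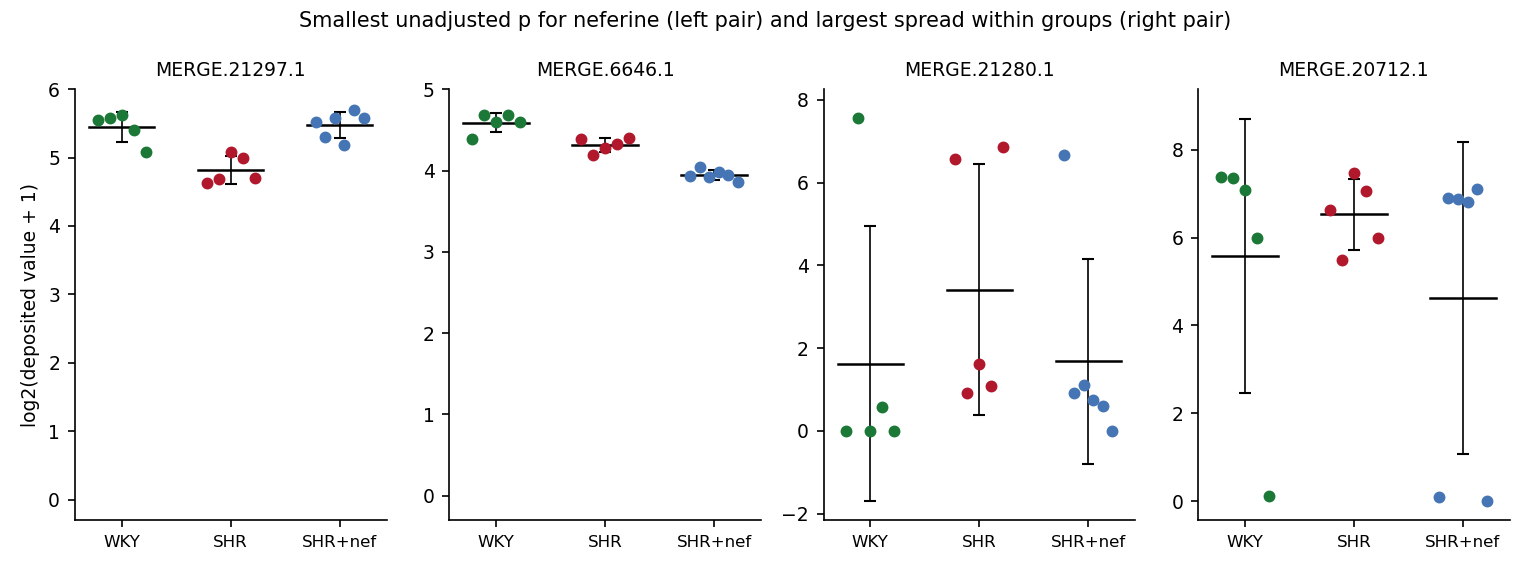
Values of 4 loci as log2(deposited value + 1) in 5 WKY, 5 SHR and 6 neferine-treated SHR libraries. Points are libraries, lines are group means and bars are SD. The 2 panels on the left show the loci with the smallest unadjusted p for neferine in each direction, and the 2 on the right the loci with the largest spread, where libraries of one group can lie both near 0 and above 6.

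This kind of split was counted with limits chosen after the data were seen. A value of at least 10 in 1 library and under 0.5 in another of the same group was found at 91 of 5008 tested loci (1.82%), against 5.13% of all tested transcripts. The share was 6.25% at loci with 2 listed transcripts, 8.92% with 3 to 9, 28.1% with 10 or more, and 3.12% for annotated transcripts. It was found within WKY at 47 loci, within SHR at 45 and within the neferine group at 60, and within all 3 groups at 17. MERGE.13942.1, of 2750 bases, lay between 30.8 and 41.8 in 12 libraries, each with at least 4831 reads, and at 0 in SHR 2, SHR 3, neferine 4 and neferine 5.

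Some of these split loci mirrored a transcript listed under another name. For each of the 91 loci, the tested transcript with the lowest Pearson correlation over the 16 libraries was sought among all 24577. This is a search for the lowest value, made after the data were seen and without a test, and all values of a library share its depth. The lowest r was -0.95 or below for 11 loci and had a median of -0.87. For 16 loci the sum of both transcripts varied by under 20% (coefficient of variation over 16 libraries), and in 13 of these the other transcript was an annotated one. Annotated transcripts were 10621 of the 24577 tested, and the search was not made for other transcripts. Some of the 16 loci were under 0.5 in only 1 library, such as MERGE.12319.1, which varied by 28.6% alone and by 9.82% as a sum. Lengths could lie far apart, with 624 bases for that locus and 4492 for MERGE.21215.1, its mirror.

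MERGE.10320.2, with a length of 4435 bases, and the annotated transcript ENSRNOT00000091712, with 4452 bases, are an example. The locus had 18.8, 19.2, 16.9, 0 and 20.5 in WKY 1, 3, 4, 5 and 6, where the annotated transcript had 1.602, 1.87, 3.33, 22.6 and 2.13. In SHR 1, 2, 3, 4 and 6 the locus had 16.5, 0.433, 17.5, 2.05 and 17.0, and the annotated transcript 2.04, 19.6, 1.73, 18.4 and 2.37. Each was high where the other was low, across all groups (r = -0.97 over 16 libraries). Alone they varied by 70.5% and 101%, and their sum by 6.88%, from 18.1 to 22.6. Positions are not used here, so whether such pairs share sequence was not tested.

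Between the strains, single-transcript loci were more often called higher in SHR than lower, a balance on which the listing and the limit for testing bear. Of the 5008 tested loci, 262 (5.23%) passed limma at a Benjamini-Hochberg adjusted p under 0.05, against 2.93% of all tested transcripts. Of these, 200 were higher in SHR (3.99%, against 1.89% of all tested) and 62 were lower (1.24%, against 1.04% of all tested). The median fold change over the tested loci was 0.0051 on the log2 scale, and that over all tested transcripts was -9.88e-05. Values of the 5 WKY and the 5 SHR libraries did not overlap at 337 loci (6.73%, against 4.45% of all tested), and 240 of the 262 called loci were among them. Without the 4 libraries of lowest residual score 178 were called, 144 of them higher, among 441 calls over all tested transcripts. With limma-voom on the recovered reads 219 were called, 169 of them higher, among 535 calls.

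The loci that rose were mostly at or near 0 in WKY. The 200 that were higher had a median mean value of 0.251 in WKY, 3.17 in SHR and 2.89 in the neferine group. In 148 of them WKY was under 1 in all 5 libraries, and in 21 it was 0 in all. Among the 5008 tested loci, 294 were under 1 in all WKY libraries and 71 in all SHR libraries. Over all 24577 tested transcripts these were 795 and 347. The limit for testing bears on this. A locus under 1 in all WKY libraries could pass through any 5 SHR and neferine libraries. One under 1 in all SHR and neferine libraries needed all 5 WKY libraries. The 62 that were lower had a median of 4.15 in WKY, 1.67 in SHR and 1.56 in the neferine group, and 11 of these were under 1 in all SHR libraries. The log2 fold change was at least 1 in size at 164 of the called loci (1.72% of all tested transcripts were called with such a change). The median was 1.39 for the higher and -0.82 for the lower loci. A value of at least 1 in all SHR libraries and 0 in all WKY libraries was found at 11 loci, among 17 of the 31042 transcripts, and the reverse at 0 loci, among 3 transcripts. The listing bears on this contrast, since every locus had a mean of at least 0.5 in SHR or neferine. A locus at 0 in all SHR libraries could be listed only with such a mean in neferine, so the 2 directions cannot be compared. Of those 11 loci, 10 also had at least 1 in all neferine libraries, and the lowest count in an SHR library was 26 reads.

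**Figure D3:**
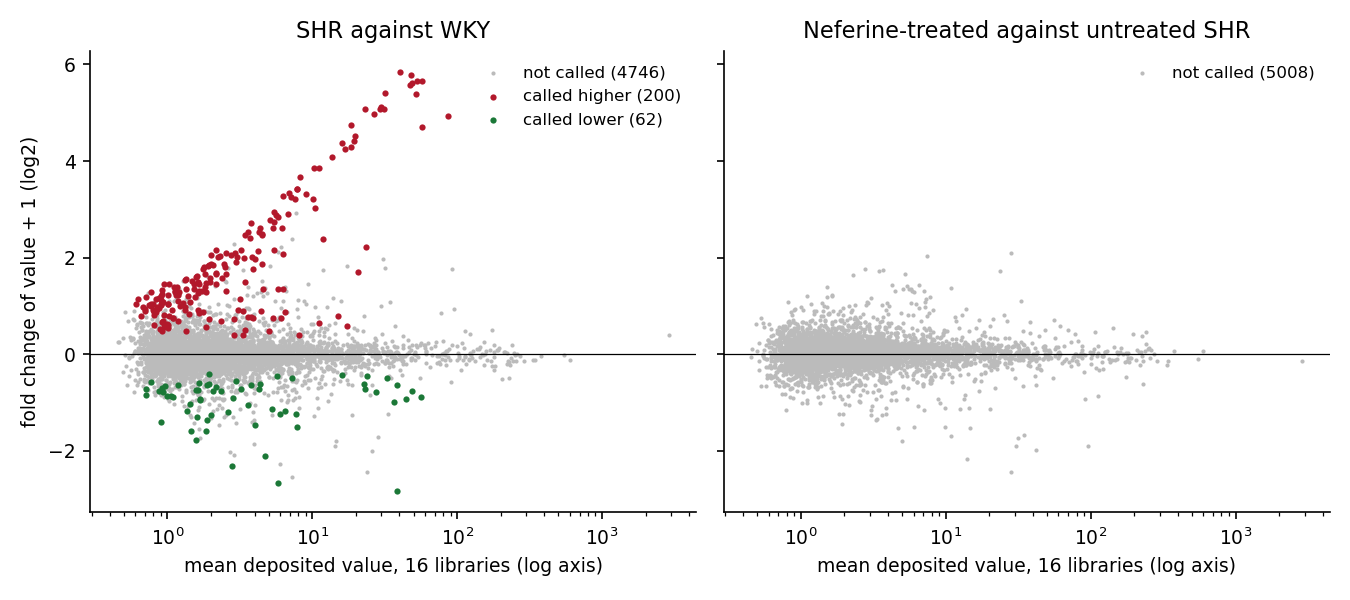
Log2 fold change of value + 1 against the mean deposited value over 16 libraries (log axis) for the 5008 tested single-transcript loci, SHR against WKY on the left and neferine-treated against untreated SHR on the right. Coloured points passed limma at an adjusted p under 0.05: 200 higher and 62 lower on the left, and 0 on the right.

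MERGE.6140.3, of 1723 bases, had the largest rise on the log2(value + 1) scale. It was at 0 in all 5 WKY libraries and at 74.8, 55.9, 42.9, 53.3 and 61.1 in SHR 1, 2, 3, 4 and 6, from 4869 to 7178 reads. With neferine it ran from 24.4 to 91.9, with a median of 63.7. WKY lay apart from both SHR groups, and the SHR libraries lay within the range of the treated ones. Against a floor of 3 reads per WKY library its SHR mean was at least 1809-fold higher. The fold change was 5.85 on the log2(value + 1) scale (SE 0.29, limma adjusted p = 1.59e-09), while limma-voom on the reads gave an adjusted p of 0.0822.

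MERGE.21708.1, of 534 bases, was low in WKY without being absent. It had 0.220, 0.225, 0.122, 0.228 and 0.205 in WKY 1, 3, 4, 5 and 6, which were 4 to 8 reads each. In SHR 1, 2, 3, 4 and 6 it had 69.9, 60.6, 51.8, 60.9 and 88.4, and in the neferine group 67.1 to 79.3, with a median of 73.5. The strains did not overlap, and the fold change was 5.79 on the log2(value + 1) scale (SE 0.12, limma adjusted p = 4.92e-14).

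MERGE.9818.1, of 606 bases, had the largest fall on the log2(value + 1) scale. It had 109, 122, 85.3, 91.4 and 77.2 in the WKY libraries and 11.4, 10.9, 15.5, 12.7 and 12.4 in the SHR libraries, in the same order. With neferine it had 6.55 to 12.9, with a median of 11.3. Every WKY value was above every SHR value, treated or not, and the fold change was -2.84 on the log2 scale (SE 0.17, limma adjusted p = 1.27e-08).

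MERGE.17708.1, of 1286 bases, had 17.5, 19.7, 13.9, 13.7 and 12.9 in the WKY libraries and 1.59, 1.28, 1.63, 1.24 and 2.18 in the SHR libraries. Treated animals ran from 0.706 to 1.56, with a median of 1.45. The strains did not overlap, and the fold change was -2.67 on the log2 scale (SE 0.15, limma adjusted p = 7.29e-09). The order of these falls turned with a pseudocount of 0.1, where the fold change was -3.22 for MERGE.17708.1 and -2.93 for MERGE.9818.1. Both kept values above 0 in every library.

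**Figure D4:**
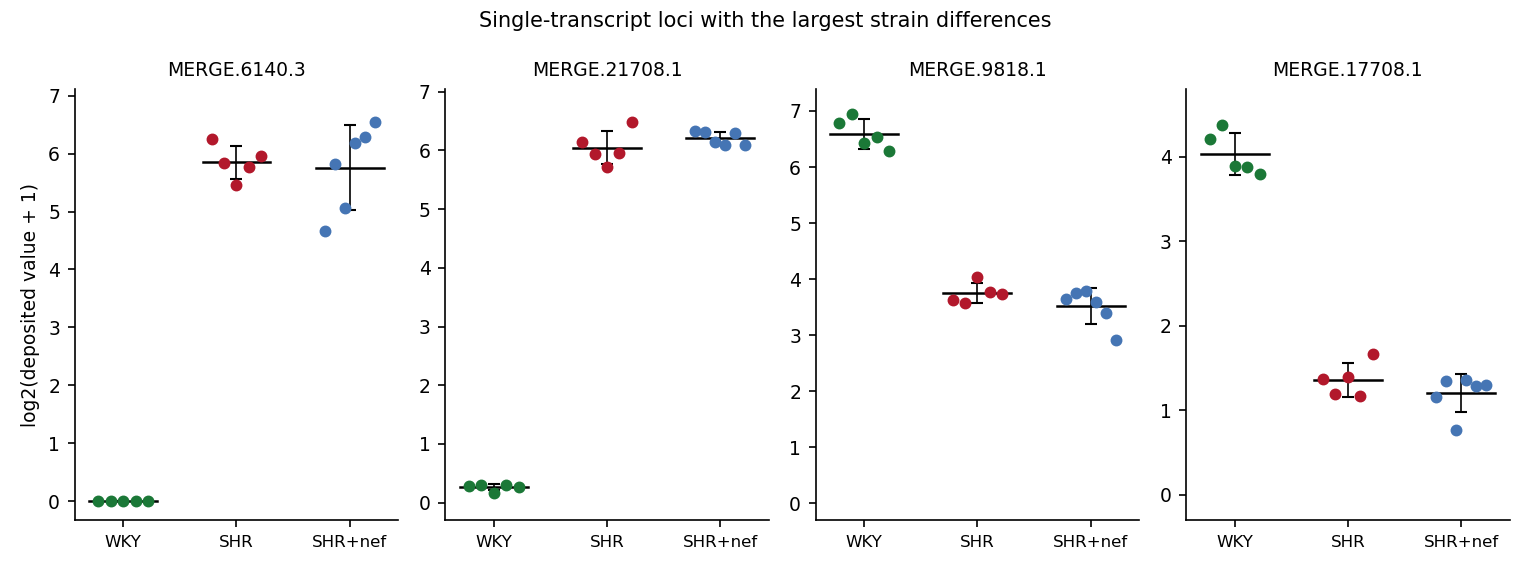
Values of the 2 loci with the largest rise and the 2 with the largest fall in SHR on the scale of the test, as log2(deposited value + 1), in 5 WKY, 5 SHR and 6 neferine-treated SHR libraries. Points are libraries, lines are group means and bars are SD. In each panel all WKY points lie apart from all points of both SHR groups.

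The balance of directions depended on the loci that were near 0 in WKY. Among the 1998 loci with at least 1 in all 16 libraries, 62 were called by limma (3.10%, against 2.81% of all such transcripts). Of these, 28 were higher and 34 lower, against 143 (1.34%) and 156 (1.47%) of all 10642 such transcripts. That limit removes by its construction every locus at or near 0 in a strain, in either direction. The listing before deposit and the limit for testing bear on the balance too. Over all transcripts of the WKY and SHR files, in a fit of those 10 libraries, 213 of 4035 single-transcript loci were called (5.28%, against 3.09% of all tested there). Of these, 133 were higher and 80 lower, against 337 (1.62%) and 304 (1.47%) of all 20746 tested there. Of the 80 that were lower, 33 were not listed for the neferine group.

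The share of called loci fell with transcript length, in 4 classes of equal size chosen after the data were seen. It was 8.56% at 200 to 943 bases, 6.21% at 945 to 2092, 3.63% at 2093 to 3793 and 2.74% above that. Over all tested transcripts in the same classes it was 5.47%, 3.41%, 2.22% and 1.78%, a pool that holds the single-transcript loci themselves. Assembled transcripts of other loci fell too, with 5.98%, 2.49%, 2.05% and 1.34%, so the fall was not particular to single-transcript loci. Annotated transcripts gave 2.92%, 2.97%, 1.81% and 1.93%, without a steady fall. With limma-voom on the reads the loci gave 6.86%, 4.76%, 3.55% and 2.50%, against 3.77%, 2.52%, 1.85% and 1.36% of all tested transcripts. Assembled transcripts of other loci gave 3.06%, 1.45%, 1.27% and 0.806% there. Among loci with at least 1 in all libraries the shares were 3.61%, 3.65%, 3.52% and 1.91%, with no fall over the first 3 classes, against 3.30%, 3.01%, 2.72% and 2.20% of all such transcripts. Median reads per library moved with length, from 49 in the shortest class to 735.5 in the longest, and their part in the result was not tested. By level, the called share was 5.73% at a mean under 1, 4.34% at 1 to 2, 4.41% at 2 to 4, 6.09% at 4 to 10 and 7.63% above, against 2.81%, 2.27%, 2.31%, 3.29% and 4.36% of all tested transcripts.

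**Figure D5:**
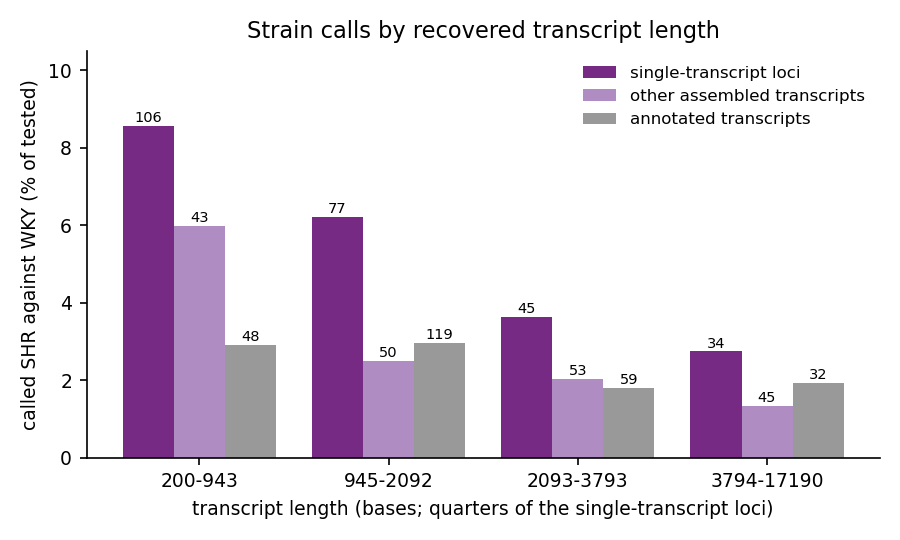
Percent of tested transcripts called between SHR and WKY (limma, adjusted p under 0.05), by recovered transcript length in bases, for single-transcript loci, other assembled transcripts and annotated transcripts. Numbers above the bars are called transcripts. The share of single-transcript loci fell from 8.56% to 2.74% over the 4 classes, and that of other assembled transcripts from 5.98% to 1.34%.

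Strain differences were also set against the locus number, after the data were seen. The sources used here do not say what the numbers stand for. Among 1165 pairs of tested loci with successive numbers, the log2 fold changes of the strains had a Pearson correlation of 0.23 and a Spearman correlation of 0.081. The Pearson correlation was 0.098 at a distance of 2 numbers, -0.017 at 3 and 0.016 at 10. These points share libraries. For neferine against SHR the correlation of successive loci was 0.062.

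No single-transcript locus was called between neferine-treated and untreated SHR. Limma called 0 of 5008 tested loci at an adjusted p under 0.05, against 0.00407% of all tested transcripts, which is 1 transcript. The smallest adjusted p of a locus was 0.265, and limma-voom on the reads also called 0. An unadjusted p under 0.05 was found at 236 loci (4.71%, against 5.88% of all tested), 150 of them higher and 86 lower with neferine. The groups did not overlap at 24 loci (0.479%, against 0.517% of all tested). The 95% interval of the fold change lay within 1 on the log2 scale, in either direction, at 4088 loci (81.6%, against 68.6% of all tested). Without the 4 libraries of lowest residual score, 0 were called.

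MERGE.21297.1, of 2267 bases, had the smallest unadjusted p among loci that were higher. It had 23.6, 24.9, 32.8, 30.8 and 24.9 in SHR 1, 2, 3, 4 and 6, and 35.3 to 50.9 in the neferine group, with a median of 45.9. The treated libraries lay above the untreated, and the WKY libraries, at 45.9, 46.6, 48.0, 41.3 and 32.9, lay above the untreated SHR libraries (lowest WKY value 32.92, highest SHR value 32.78) and overlapped the treated ones. The fold change of neferine over SHR was 0.66 on the log2 scale (95% interval 0.40 to 0.93, limma adjusted p = 0.265), which did not pass. The fold change of SHR over WKY was -0.63 (limma adjusted p = 0.0117), and both comparisons share the untreated SHR libraries.

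MERGE.6646.1, of 304 bases, had the smallest unadjusted p among loci that were lower. It had 20.01, 17.2, 18.3, 19.0 and 20.2 in the SHR libraries and 13.5 to 15.5 in the neferine group, with a median of 14.3. The treated libraries lay below the untreated, which were in turn mostly below the WKY libraries, at 19.99, 24.7, 23.1, 24.8 and 23.1. The fold change of neferine over SHR was -0.37 on the log2 scale (95% interval -0.52 to -0.21, limma adjusted p = 0.295), which did not pass.

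At loci called between the strains, the interval of the neferine difference was mostly within 1 on the log2 scale. The 200 loci higher in SHR had a median log2 fold change of 0.019 for neferine over SHR, with an interval within 1 at 185. The 62 lower loci had a median of 0.031, with an interval within 1 at 60. Such an interval was found at 81.6% of all tested loci and 68.6% of all tested transcripts. Calls and intervals come from 1 fit with a shared estimate of spread, so calling favours loci with narrow intervals. The counts therefore do not show whether neferine acts on these loci. The intervals were -0.69 to 0.50 for MERGE.6140.3, -0.075 to 0.40 for MERGE.21708.1, -0.57 to 0.11 for MERGE.9818.1 and -0.46 to 0.15 for MERGE.17708.1. These comparisons share the untreated SHR libraries.

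Neferine-treated SHR were also more often higher than lower against WKY. Limma called 340 of 5008 loci (6.79%, against 4.1% of all tested), 238 higher (4.75%, against 2.63%) and 102 lower (2.04%, against 1.47%) in the treated SHR. The groups did not overlap at 389 loci (7.77%, against 5.03% of all tested). Among loci with at least 1 in all libraries 103 of 1998 were called, against 474 of all 10642 such transcripts (4.45%). Of these loci, 46 were higher and 57 lower, against 258 (2.42%) and 216 (2.03%) of all such transcripts. The balance of the loci was thus the other way round there. Without the 4 libraries of lowest residual score 237 were called, among 653 calls over all tested transcripts. The listing before deposit and the limit for testing bear on the balance here too. A WKY mean below 0.5 was found at 902 loci, while 0 loci had a mean below 0.5 in both SHR and neferine. This comparison shares its libraries with the comparisons above.

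MERGE.19879.1, of 1375 bases, had the largest rise on the log2(value + 1) scale. The order rests on the pseudocount of 1, since MERGE.6140.3, at 0 in WKY, had a mean at least 1847-fold higher with neferine against a floor of 3 reads. Its locus lists 2 transcripts when all files are taken. It had 0.775 (71 reads) in WKY 3 and 0 in WKY 1, 4, 5 and 6. In SHR 1, 2, 3, 4 and 6 it had 55.5, 43.2, 61.9, 57.2 and 54.0, and in the neferine group 46.8 to 149, with a median of 77.8. WKY lay apart from both SHR groups, which overlapped each other. The fold change over WKY was 6.13 for treated SHR (SE 0.26, limma adjusted p = 2.08e-10) and 5.62 for untreated SHR (limma adjusted p = 1.33e-09), on the log2(value + 1) scale. With limma-voom on the reads the first of these had an adjusted p of 0.0585. For neferine over SHR it was 0.51 (95% interval -0.053 to 1.07, limma adjusted p = 0.836). In treated SHR against WKY, MERGE.21708.1 was next among the rises on that scale, at 5.95, and MERGE.9818.1 and MERGE.17708.1 fell by 3.08 and 2.83 on the log2 scale (limma adjusted p at most 2.40e-09 for each).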

How the data were processed

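Libraries were made from total RNA of heart tissue with NEBNext ribosomal depletion and library kits, per the labels' protocols. The authors deposited a normalised signal per transcript and library. Its unit, the aligner, the assembler, the annotation and the genome build are not given in the sources used here, and limma is the only tool in the submitters' processing notes. The WKY and SHR files list transcripts with a mean of at least 0.5 in WKY or SHR. All 6692 loci examined here also had such a mean in SHR or neferine.

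Whole reads, lengths and relative depths were recovered from the steps between low values (Python 3.11.15). The test was limma (3.58.1, R 4.3.3) with trended variance, fitted to log2(value + 1) of 24577 transcripts with at least 1 in at least 5 libraries, with all 16 libraries, 1 mean per group and no covariate. Adjustment was by Benjamini-Hochberg over all of them, at 0.05. A fold change on this scale understates the change of low values. The fit and the recovery were tested on simulated data. Lengths rest on the assumed constant, and intervals from reads were not used.

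The loci and the tests were chosen with earlier results of these data known. Named were, per comparison, the 2 largest rises and 2 largest falls among called loci without overlap whose higher group averaged 1 or more. For neferine against SHR the smallest unadjusted p in each direction was used. The 2 most abundant loci and the 2 with the largest spread were also named. MERGE.13942.1, MERGE.10320.2 and MERGE.12319.1 were chosen after their values were seen. Added once the data were seen were limma-voom on recovered reads and a fit of all transcripts of the WKY and SHR files.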

Additional observations from a re-analysis of the deposited data

Results flagged for a closer look

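In 5 of 42 groups of values examined, 1 library lay far from the rest of its group. Chance would give about 1 in 20 among unselected groups. The loci here were named by their values, MERGE.21280.1 for its spread, so that rate cannot be set against this count. MERGE.21708.1 had 0.122 in WKY 4 against 0.205 to 0.228 in the other WKY libraries, a difference of a few reads. MERGE.19879.1 had 0.775 in WKY 3 and 0 in the other WKY libraries. MERGE.21280.1 had 186 in WKY 3 against at most 0.503 in the other WKY libraries, and 101 in neferine 1 against at most 1.17 in the other neferine libraries. The loci held 7.18% of the summed values in WKY 6, against 6.11% to 6.33% in the other WKY libraries.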

How the results depend on the processing

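With a limit of at least 1 in all libraries, calls fell from 262 to 62 for SHR against WKY and from 340 to 103 for neferine against WKY, since fewer loci were tested and those near 0 in a group were removed. Over all tested transcripts, calls fell from 720 to 299 and from 1008 to 474. At an adjusted p under 0.01, 219 were called for neferine against WKY, among 527 calls over all tested transcripts. The other alternatives gave counts within 1.5 times the main ones. The first residual component as a covariate gave 318 and 424, among 946 and 1473 calls over all tested transcripts. That component was taken from the residuals of the same fit, so it removes spread by its construction. For neferine against SHR every alternative run gave 0 calls, among 0 to 7 calls over all tested transcripts. The smallest adjusted p was 0.0578 (limma, with that component as a covariate). Leaving out 1 library gave 232 to 267 calls for SHR against WKY, 266 to 346 for neferine against WKY and 0 for neferine against SHR. Over all tested transcripts the first 2 ranges were 579 to 731 and 733 to 1072. MERGE.20712.1 had a log2 fold change of -0.43 without WKY 6, in place of 0.94, and up to 1.39 with another library left out, and was called in none. Medians over all tested transcripts moved by under 0.1 (log2) with another scaling.

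Same-numbered libraries did not deviate together: over 14 pairs r ran from -0.091 to 0.13, with 1 over 0.1, and 2 of 16 libraries correlated best with their own number. With the replicate block, 201, 0 and 251 loci were called for SHR against WKY, neferine against SHR and neferine against WKY. These were among 500, 1 and 727 calls over all tested transcripts. Among the largest rises and falls named, only MERGE.6140.3 and MERGE.19879.1 lost a call in an alternative that tested them, under limma-voom on recovered reads. With a limit of at least 1 in all libraries, MERGE.9818.1 alone among them was tested.

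The median mean value was 1.92 over the tested loci, against 1.34 over all, and the median SD within groups was 0.48 with a pseudocount of 0.1, against 0.31. Reads were fewest in the shortest class of tested loci, with a median of 49 per library, and 39 tested loci had a median under 10 reads.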
